A study of Drosophila melanogaster with 2 samples.

Results

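Of 5153 peaks of the CG10366 fusion protein that passed the authors' threshold in Drosophila melanogaster embryos, 155 (3.01%, 95% Wilson interval 2.58 to 3.51%) had a summit at most 500 bp from the start of a non-coding gene, with no protein-coding start nearer. They were chosen by position alone. The nearest annotated start of any transcript (Ensembl release 115, transposable elements left out) had to belong to a gene that is not annotated as protein-coding, and 5 summits at equal distance from a start of each kind were left out. Transcript starts of either kind lay within 500 bp of 2311 summits, and the 155 were 6.71% of these (5.76 to 7.80%). The 155 summits belonged to 143 genes, since 11 genes held more than 1 summit. Their counterparts are 2151 summits nearest to a protein-coding start, 2842 summits with no start in reach, and 818 candidates nearest to a non-coding start that the authors ranked but that failed the threshold.

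The chromatin came from whole embryos of 0 to 24 h of the fly strain CG10366-GFP, in which an insertion gives a fusion of CG10366 with eGFP, and was precipitated with an antibody against GFP after sonication to 200 to 800 bp. There was 1 group of 2 libraries, which the labels call biological replicates 1 and 2. A whole embryo mixes all tissues and stages of that day, so a peak cannot be tied to a cell type. No control library, input or reads were analysed here, and the lists give no read totals, so depth is unknown. The comparisons are therefore between places in the genome. Intervals on shares are 95% Wilson intervals, which cover counting error only and treat neighbouring peaks as independent.

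Non-coding genes fall into kinds that are transcribed in different ways. Long non-coding RNAs (lncRNAs) and antisense RNAs are mostly made by RNA polymerase II from promoters of their own or from promoters that also fire in the other direction, and a good part of them have no known function. Transfer RNAs, the U6 small nuclear RNA and 7SK RNA are made by RNA polymerase III, while the other spliceosomal RNAs are made by polymerase II from short promoters. Small nucleolar RNAs (snoRNAs) and microRNAs are cut out of longer host transcripts, so their annotated 5′ end is a processing end and not necessarily the place where transcription began. A start in the sense used here is the annotated 5′ end in each case.

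The summit windows below show the DNA under these peaks, 50 bp to either side of the summit, on the plus strand of the dm6 assembly (RefSeq copy, Release 6). The first 5 belong to strong peaks, taken among those whose window touches no untranslated region of a coding gene. The last 3 were chosen after their values were seen, because flam is a known RNA locus and because Uhg8 and snRNA:7SKa had the lowest and the highest GC content of all 155. Capitals mark TTTAAA, the letters that recur in the sequence comparison.
lncRNA:CR44619, the stronger summit, chrX:12751363-12751463: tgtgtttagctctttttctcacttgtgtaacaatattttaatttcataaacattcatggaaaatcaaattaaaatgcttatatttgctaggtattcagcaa
lncRNA:CR44619, the weaker summit, chrX:12752300-12752400: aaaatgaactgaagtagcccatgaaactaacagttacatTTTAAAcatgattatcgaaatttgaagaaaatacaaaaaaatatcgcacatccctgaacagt
lncRNA:CR31044, chr3R:29214397-29214497: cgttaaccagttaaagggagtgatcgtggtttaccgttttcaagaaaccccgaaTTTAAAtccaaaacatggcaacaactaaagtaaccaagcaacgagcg
lncRNA:CR46036, chr3R:17700525-17700625: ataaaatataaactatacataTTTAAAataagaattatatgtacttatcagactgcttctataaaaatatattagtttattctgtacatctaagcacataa
tRNA:Tyr-GTA-1-8, chr3R:8669321-8669421: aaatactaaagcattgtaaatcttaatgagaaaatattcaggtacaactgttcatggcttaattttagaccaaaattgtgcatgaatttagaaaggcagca
lncRNA:flam, chrX:21631685-21631785: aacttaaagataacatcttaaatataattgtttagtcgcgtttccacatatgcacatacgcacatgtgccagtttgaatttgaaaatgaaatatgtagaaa
Uhg8, chr3L:20453081-20453181: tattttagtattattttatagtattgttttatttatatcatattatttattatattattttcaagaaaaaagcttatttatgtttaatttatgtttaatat
snRNA:7SKa, chr3R:7474702-7474802: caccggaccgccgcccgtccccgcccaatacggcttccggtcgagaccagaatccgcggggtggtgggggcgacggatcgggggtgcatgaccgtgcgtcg

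GC content, the share of G and C letters, was 25.7% and 29.7% in the CR44619 windows, 41.6% at CR31044, 18.8% at CR46036, 29.7% at tRNA:Tyr-GTA-1-8 and 29.7% at flam. It was 9.90% at Uhg8 and 73.3% at snRNA:7SKa. The windows have no common sequence to the eye: TTTAAA stands in the weaker CR44619 window, at CR31044 and at CR46036, and is missing from the other 5. Of the strong windows chosen by the same rule but not shown, those at lncRNA:CR44149 and lncRNA:CR44867 hold it and that at lncRNA:CR44868 does not.

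The strength of the peaks near non-coding starts spanned the range of the list. The authors' signal value, a measure of enrichment per peak with no stated scale, had a median of 146 (quartiles 97.1 and 299, range 3.34 to 2025). The median was 160 for summits nearest to protein-coding starts, 132 for summits with no start in reach and 142 for all 5153. Among the 500 strongest peaks of the whole list were 24 of the 155 (15.5%, 10.6 to 22.0%), against 294 of the 2151 protein-coding summits (13.7%, 12.3 to 15.2%), and these intervals overlap.

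**Figure D1:**
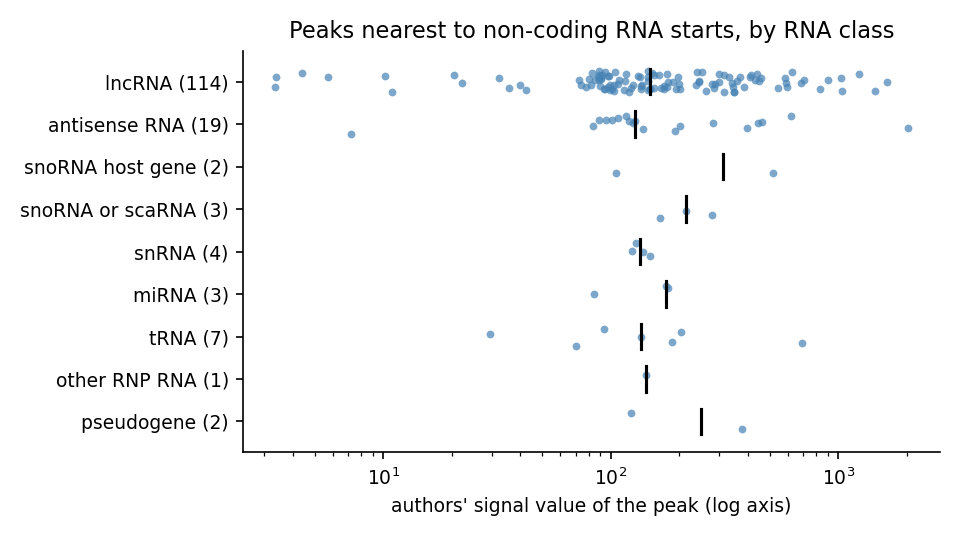
Authors' signal value (log axis) of each of the 155 peaks, 1 point per peak, by RNA class with the number of peaks in parentheses; bars mark medians. The lncRNA peaks cover nearly the whole range from 3.34 to 1643, and the strongest peak of all, at 2025, is at an antisense RNA.

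The strongest peak, on chr2R:23850255-23850556, had a series-wide signal of 2025, with 1225 in the replicate 1 list and 812 in the replicate 2 list. Its summit lay 76 bp inside asRNA:CR45928, an antisense transcript that overlaps ytr, and 105 bp upstream of eIF6, which encodes a factor that binds the large ribosomal subunit. The next, at lncRNA:CR44339, had a signal of 1643, with 944 and 703 in replicates 1 and 2. This summit lay 161 bp upstream of the lncRNA in intergenic DNA, and the nearest protein-coding start was that of Psc, a Polycomb group gene, at 4212 bp.

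The lncRNA CR44619 on the X chromosome had the nearest start to a pair of strong summits 937 bp apart. The stronger one had a signal of 1453 (936 and 556 in replicates 1 and 2) and lay 454 bp upstream of its nearest start. The weaker one had 1033 (669 and 364) and lay 483 bp past that start. Both were in non-coding exons, but the stronger summit lay outside the annotated CR44619 gene, so its exon belongs to another gene. The nearest protein-coding start, of CG4004, was more than 5 kb away, at 5096 bp from the stronger summit.

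A second pair lay in introns of beat-Ib, a gene of the Beat family of immunoglobulin-domain proteins, whose founding member acts in axon guidance. There lncRNA:CR44867 and lncRNA:CR44868, antisense to beat-Ib, had signals of 703 (416 and 269) and 684 (423 and 264), with summits 425 and 327 bp upstream of their starts and 965 bp apart. Another intronic summit was at lncRNA:CR46036, 166 bp upstream of its start inside osa, which encodes a subunit of the BAP chromatin remodelling complex. Its signal was 832 (452 and 375). The antisense RNA CR44429 lies within gce, a juvenile hormone receptor gene, and its summit had a signal of 622 (415 and 201), 264 bp upstream of the antisense start and 528 bp upstream of a gce start.

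Strong summits in intergenic or non-coding DNA were found at lncRNA:CR31044 and lncRNA:CR44810. The CR31044 summit had a signal of 1234 (714 and 533) and lay 115 bp upstream of the start. The CR44810 summit had 1028 (666 and 366) and lay inside the annotated gene, 160 bp upstream of a start within it. The nearest protein-coding starts, of eEF1gamma (a translation elongation factor subunit) and slbo (a C/EBP transcription factor of border cell migration), were 5725 and 4532 bp away. Coding starts were much closer at lncRNA:CR44149, where the summit with a signal of 897 (553 and 343) lay 59 bp inside the lncRNA and 164 bp upstream of brwl. The same arrangement was seen at lncRNA:CR44209, where the summit with a signal of 625 (403 and 229) lay 149 bp inside the lncRNA and 158 bp upstream of Cyt-b5, a cytochrome b5 gene.

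The rest of the 15 strongest were tRNA:Tyr-GTA-1-8, lncRNA:CR31840 and lncRNA:CR45997. The CR31840 summit, with a series-wide signal of 593, was the only one of the 15 with a higher value in the replicate 2 list, 390 against 212 in replicate 1, although the scales of these lists need not be equal. The CR45997 summit, in a transcript on the same strand as mbl (muscleblind, a splicing regulator), had 587 (332 and 269). All 15 overlapped a passing peak in each replicate and in the authors' conservative list.

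By class, 114 of the 155 summits were nearest to lncRNA starts and 19 to antisense RNA starts. The median signal was 148 for lncRNAs and 128 for antisense RNAs. Taking both together, 78 of 133 summits lay upstream of the start (58.6%, 50.1 to 66.7%). The small RNA genes (tRNA, snRNA, snoRNA, microRNA and 7SK) had 18 summits, of which 13 lay upstream (72.2%, 49.1 to 87.5%).

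All 7 tRNA summits lay upstream of the tRNA gene, from 2 to 445 bp away. Transfer RNA genes have their promoter inside the gene. They exist in near-identical copies, so reads from within a gene may map to several places, and the treatment of such reads is not stated in the sources at hand. The strongest was at tRNA:Tyr-GTA-1-8, with a signal of 690 (400 and 278). Its summit lay 197 bp upstream of the tRNA and 247 bp upstream of a start of the protein-coding gene CG8036. This summit was intronic and lay inside the annotated genes CG8036 and p. The other tRNA summits had signals from 29.4 to 204, and 4 of the 7 had a protein-coding start within 500 bp.

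The 4 snRNA summits had signals between 124 and 149, and 3 of the 4 lay past the start. The upstream share of 1 in 4 (4.56 to 69.9%) and that of the 7 tRNA summits (64.6 to 100%) have overlapping intervals. The strongest, at snRNA:U6:96Ac, lay 111 bp upstream with a signal of 149. Its replicate 2 value was 59.6, and replicate 1 had no ranked candidate there. The summits at snRNA:U1:95Ca, snRNA:U5:63BC and snRNA:U2:34ABb lay 106, 116 and 175 bp past the start, with signals of 139, 124 and 129. The U2 summit also had no ranked candidate in replicate 1, and the U5 summit passed in replicate 2 alone. These genes have near-identical copies, so the placing of reads among copies is uncertain.

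The 3 snoRNA summits had signals of 279, 214 and 164. They lay 467 bp upstream of snoRNA:Or-ACA6, 420 bp past the 5′ end of snoRNA:Or-CD4 and 468 bp upstream of snoRNA:abba-a. The microRNA summits all lay upstream of the precursor, 444 bp for mir-275 (signal 179, passing in both replicates), 104 bp for mir-2491 (174) and 281 bp for mir-34 (84.7). The mir-34 summit passed in neither replicate alone. Of the 2 pseudogene summits, the stronger, at CR42875, had a signal of 376 (215 and 164) and also lay 126 bp upstream of CG10068.

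Of 24 well-known non-coding RNA genes found in the annotation, 4 had a passing summit at their start (16.7%, 6.68 to 35.9%), beside 5.43% (4.79 to 6.15%) of all non-coding genes. Of the others, 7 had a failing candidate alone within 500 bp of a start, and 13 had no ranked candidate there, so that 11 of 24 had a candidate of either kind (45.8%, 27.9 to 64.9%), beside 24.3% of all non-coding genes. Without the 7 snoRNA host genes on the list, 2 of 17 had a summit (11.8%, 3.29 to 34.3%). The 4 were 2 host genes of snoRNAs, Uhg4 and Uhg8, the 7SK gene snRNA:7SKa, and flam (flamenco), the precursor of piRNAs that silence transposons in the ovarian follicle cells.

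At Uhg4 the summit lay 80 bp upstream with a signal of 516 (268 and 240 in replicates 1 and 2). At Uhg8 it lay 162 bp upstream with 105 (52.1 and 56.2), and 267 bp upstream of CG5199 as well. The flam summit lay 156 bp upstream of the annotated 5′ end on the X chromosome, with a signal of 146 (93.1 and 51.7) that equals the median of all 155. The 7SK summit lay 244 bp past the start, inside the RNA, which holds back the elongation factor P-TEFb. Its signal was 143 (69.8 and 60.6). All 4 overlapped a passing peak in each replicate.

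The dosage compensation RNAs roX1 and roX2 had no ranked candidate at their starts, and the nearest passing summits were 5952 and 1425 bp away. The same held for iab4 and iab8 of the bithorax complex, for Uhg1, Uhg3, Uhg5 and Uhg7, for snRNA:7SKb, for both 7SL RNA genes (the RNA of the signal recognition particle), for sphinx and for CRG. Of these, Uhg1 had the nearest passing summit, 605 bp upstream with a signal of 197 and so outside the 500 bp limit. A failing candidate alone was found for bxd, Hsromega (the heat shock RNA omega), let7C (the let-7 microRNA host), Uhg2, RNaseP:RNA, RNaseMRP:RNA and yar. None of the 99 annotated ribosomal RNA genes on the main arms had a ranked candidate within 500 bp of its start. Ribosomal RNA genes are repeated, and what part the placing of reads had in this was not tested.

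Across all non-coding genes on the main arms, 234 of 4309 had a passing summit within 500 bp of a start (5.43%, 4.79 to 6.15%), including genes with a nearer protein-coding start. Among protein-coding genes the share was 19.4% (18.8 to 20.1%). The share was 5.78% for lncRNAs, 7.55% for antisense RNAs, 5.17% for tRNAs, 3.85% for microRNAs and 4.38% for snoRNAs, with overlapping intervals. It was higher for snRNAs, at 5 of 30 genes (16.7%, 7.34 to 33.6%), than for lncRNAs (4.93 to 6.76%), with intervals that do not overlap. For pseudogenes it was lower than for lncRNAs, at 6 of 330 (1.82%, 0.836 to 3.91%), again without overlap. The snRNA interval overlapped with those of antisense RNAs, tRNAs and snoRNAs, though not with that of microRNAs. The pseudogene interval overlapped with those of tRNAs, snoRNAs and microRNAs, though not with that of antisense RNAs. Of the 7 snoRNA host genes 2 had a summit (28.6%, 8.22 to 64.1%), and of the 6 other RNP RNA genes 1 had (16.7%, 3.01 to 56.4%).

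Candidates at non-coding starts passed the threshold about as often as candidates in general. The threshold was an irreproducible discovery rate (IDR, an estimate of how often peaks of that rank fail to repeat) of 0.01, met by values of at least 2 on the −log10 scale. Of 978 ranked candidates nearest to a non-coding start, 155 passed (15.8%, 13.7 to 18.3%), beside 15.1% of all 34018 ranked candidates. The share was 31.5% (30.4 to 32.6%) at protein-coding starts and 10.8% (10.5 to 11.2%) with no start in reach. The replicate lists and the conservative list have longer rankings, and their shares at non-coding starts were lower: 9.45% (8.10 to 11.0%) in replicate 1, beside 7.77% of all its candidates, 10.4% (8.67 to 12.4%) in replicate 2, beside 8.91%, and 8.71% (7.48 to 10.1%) in the conservative list, beside 7.53%. In replicate 1 the non-coding share was above that of all candidates beyond its interval. Another 5 candidates at non-coding starts met the IDR and were not in the thresholded list.

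Summits near non-coding starts were spread more widely around the start than those at protein-coding starts. Upstream of the start lay 94 of 155 (60.6%, 52.8 to 68.0%), against 82.6% (80.9 to 84.1%) of the protein-coding summits and 43.2% (39.8 to 46.6%) of the failing candidates at non-coding starts. The median distance was 198 bp, against 117 bp at protein-coding starts. From 1 to 200 bp upstream lay 48 of the 155 (31.0%, 24.2 to 38.6%), 61.1% (59.0 to 63.1%) of the protein-coding summits and 21.3% (18.6 to 24.2%) of the failing candidates. The intervals at non-coding and protein-coding starts did not overlap in either share, while those of passing and failing summits at non-coding starts met at 24.2% in the second. The upstream share stayed between that of failing candidates and that of protein-coding summits, with no overlap of intervals, in each of the 8 other settings in which all 3 were recomputed. How well non-coding 5′ ends are mapped in the annotation was not tested.

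**Figure D2:**
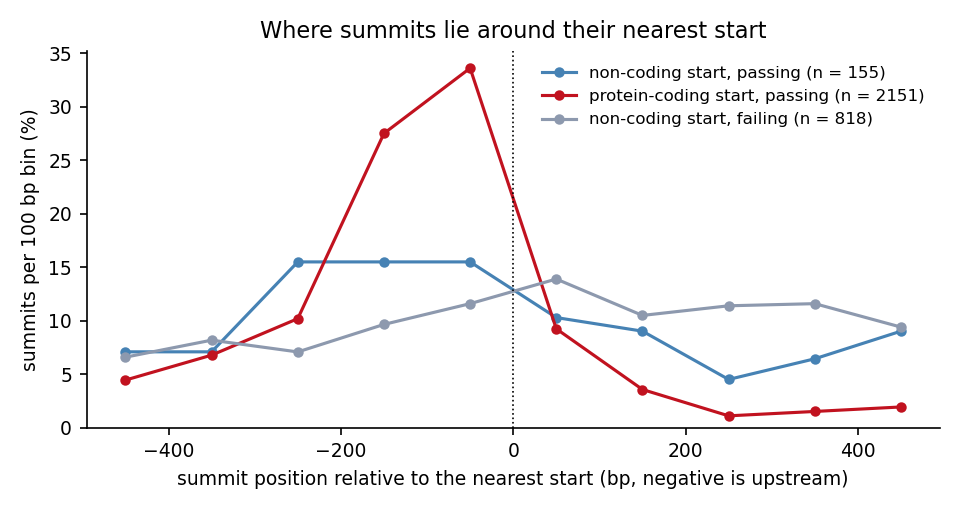
Share of summits (%) in 100 bp bins by position relative to the nearest start (bp, negative is upstream), for the 155 passing summits at non-coding starts, 2151 at protein-coding starts and 818 failing candidates at non-coding starts. The protein-coding curve peaks at 33.6% just upstream of the start, while the non-coding curve stays at 15.5% over the 3 bins nearest upstream.

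By annotation, 57 of the 155 summits lay in intergenic DNA (36.8%), 52 in non-coding exons (33.5%) and 37 in introns (23.9%). Another 4 lay in 3′ UTRs, 3 in 5′ UTRs and 2 in coding exons. Of all 5153 summits, 38.7% were in intergenic DNA, 2.74% in non-coding exons and 48.8% in introns. Choosing summits near non-coding starts by itself favours non-coding exons. The non-coding gene itself lay between protein-coding genes in 96 cases, overlapped one on the opposite strand in 45, on the same strand in 12 and on both in 2. By arm there were 39 summits on 2R, 35 on 2L, 30 on 3R, 27 on 3L, 24 on X and none on 4. The share on 2R (25.2%, 19.0 to 32.5%) was above that of all peaks (17.8%, 16.7 to 18.8%), of which they are part, with intervals that do not overlap. It overlapped with the share of protein-coding summits (19.2%, 17.6 to 21.0%) and of failing candidates at non-coding starts (17.4%, 14.9 to 20.1%), as did the shares of the other arms with that of all peaks.

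A protein-coding start was also within 500 bp of 30 of the 155 summits (19.4%, 13.9 to 26.3%), against 10.8% (8.82 to 13.1%) of the failing candidates. These intervals did not overlap. At an IDR of 0.001 the share fell to 12.2% (7.39 to 19.4%), and its interval overlapped with that of the failing candidates. Intervals also overlapped in the replicate 2 list alone, with 13.8% (8.52 to 21.5%) against 12.2% (10.2 to 14.4%) of failing candidates. In 28 of the 30 the coding and the non-coding start were on opposite strands. In 13 of these the summit lay inside the non-coding gene and upstream of the coding start, in 10 it lay upstream of both, in 4 upstream of the non-coding start and inside the coding gene, and in 1 past both. Of the 30, 25 were upstream of the coding start (83.3%, 66.4 to 92.7%) and 15 upstream of the non-coding one (interval 33.2 to 66.8%).

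The other 125 summits had no coding start in reach. The nearest was a median of 3204 bp away (504 to 32922 bp). Of these summits 79 lay upstream of the non-coding start (63.2%, 54.5 to 71.1%), against 42.7% (39.2 to 46.4%) of failing candidates of the same kind, so the upstream share of members was as large without a coding start nearby.

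The 155 peaks repeated between the libraries about as often as the list as a whole. A passing peak of replicate 1 was overlapped by 132 (85.2%, 78.7 to 89.9%), beside 85.1% of all series-wide peaks. For replicate 2 the count was 105 (67.7%, 60.0 to 74.6%), beside 64.4%. Both replicates were met by 93 (60.0%, 52.1 to 67.4%), beside 57.9%, and the conservative list by 132 (85.2%), beside 87.8%. Replicate 1 alone was met by 39, replicate 2 alone by 12 and neither by 11.

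Peaks with a coding start in reach repeated less: 10 of 30 met both replicates (33.3%, 19.2 to 51.2%), against 83 of 125 without one (66.4%, 57.7 to 74.1%). The difference lay in replicate 2, met by 11 of 30 and by 94 of 125, while replicate 1 was met by 26 of 30 and 106 of 125. Signal differed with it, with medians of 103 and 155. Its part in the difference was not tested.

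Repeating followed strength closely. In the strongest 51 peaks, with signals of 236 and above, 49 met both replicates (96.1%). In the middle 51 it was 36 (70.6%) and in the weakest 53 it was 8 (15.1%). The series-wide signal comes from the same 2 libraries, so strength and passing in each replicate are not independent measures. Over the 148 peaks with a ranked candidate in each replicate list, the signals of the lists had a Spearman correlation of 0.78 (0.82 over the 2061 such protein-coding summits). This is across peaks, which share the same 2 libraries, and is a description. Closely spaced peaks can share a candidate in a replicate list.

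**Figure D3:**
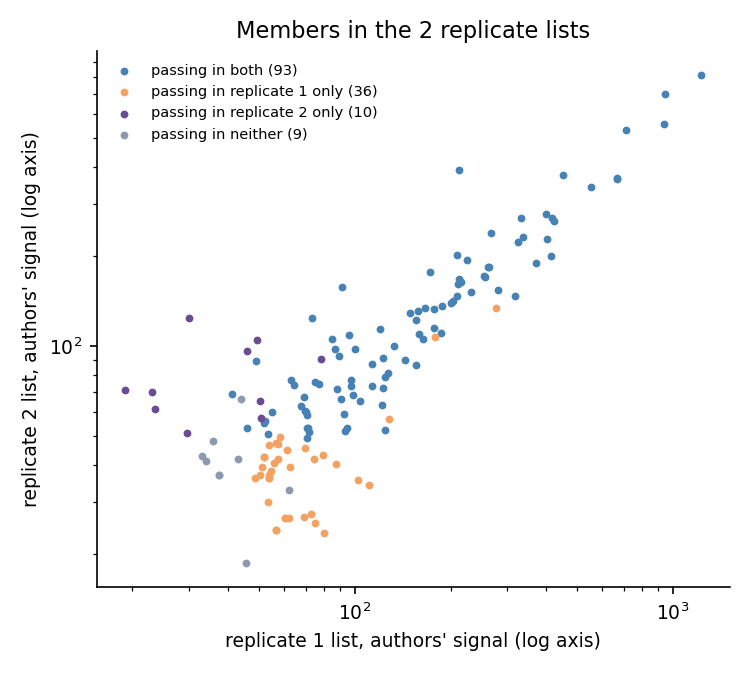
Authors' signal of the overlapping ranked candidate in the replicate 1 list (x, log axis) and the replicate 2 list (y, log axis), for the 148 peaks with a candidate in each, coloured by where they passed. The 93 peaks that passed in both hold all of the highest values.

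The weakest peaks stood beside stronger ones. A signal under 50 was found in 14 of the 155 (9.03%, 5.46 to 14.6%), beside 6.42% (5.79 to 7.13%) of all 5153 summits. Of these 14, 13 had a stronger summit of the same list within 300 bp, at a median of 211 bp (199 to 289 bp). How often this holds for weak summits elsewhere in the list was not computed. The 3 weakest were at lncRNA:CR46490 (3.34, 225 bp from a summit of 94.4), lncRNA:CR45036 (3.37, 239 bp from one of 88.8) and lncRNA:CR45290 (4.37, 227 bp from one of 116). The CR45290 gene held 3 summits in all. Leaving the 13 out raised the median signal to 159 and lowered the mean GC content to 34.4%, a comparison chosen after seeing the data.

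Near the 500 bp limit, the 3 outermost summits kept were at lncRNA:CR44730 (497 bp, signal 136), lncRNA:CR45277 (493 bp, 148) and lncRNA:CR43334 (493 bp, 243). The 3 nearest beyond it were at lncRNA:CR42736 (501 bp, 188), lncRNA:CR44517 (504 bp, 284) and a further summit of lncRNA:CR31840 (508 bp, 91.0). Of the 5 ties that were left out, the strongest lay 255 bp from both lncRNA:enrr and elav, with a signal of 762. The others were at SCOT, cry, IKKbeta and ush, with signals of 274, 105, 105 and 77.3.

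The DNA at these summits was poor in G and C. Mean GC content within 50 bp of the summit was 35.5% (SD 10.7, n = 155), against 35.3% (SD 10.3) at protein-coding starts, 33.9% (SD 9.13) with no start in reach and 45.4% (SD 9.99) at the failing candidates of non-coding starts. In 21 bp windows it was 33.9% at the summit and 43.7% and 44.6% at 400 bp to either side, so that the low GC content was local. The failing candidates had 45.4% at their centre and 42.0% and 41.7% at those flanks. The strongest 51 peaks had 31.0% (SD 7.95), the middle 51 had 36.1% (SD 10.6) and the weakest 53 had 39.1% (SD 11.7). The last group held all 13 summits that lay beside a stronger one, whose mean was 47.3% (SD 9.50), and without them it had 36.5% (SD 11.2, n = 40), close to the middle group.

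**Figure D4:**
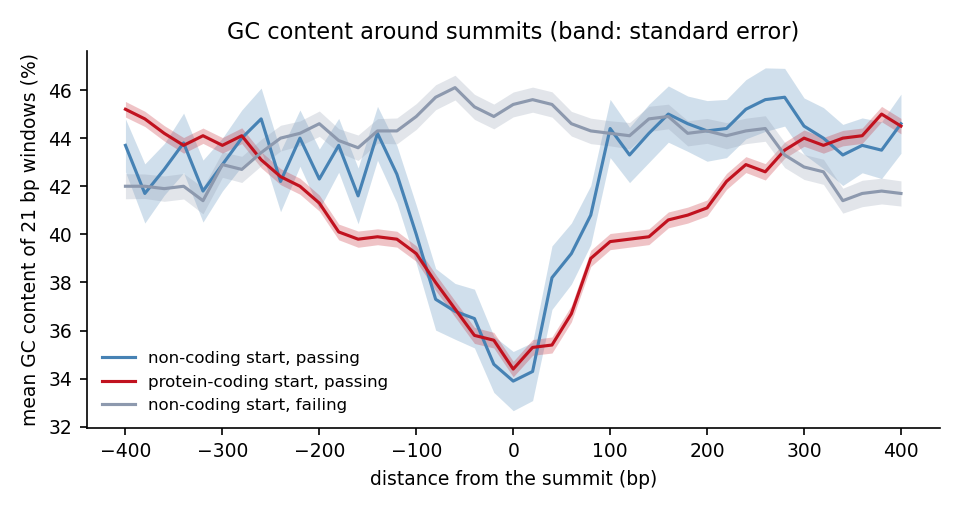
Mean GC content (%) of 21 bp windows by distance from the summit (bp), with bands of 1 standard error, for passing summits at non-coding and protein-coding starts and failing candidates at non-coding starts. Passing summits of both kinds dip to 33.9% and 34.4% at the summit, while failing candidates do not dip and stand at 45.4%.

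Known promoter and insulator motifs were searched as exact letters on both strands within 100 bp of the summit. Motifs of housekeeping promoters were rarer at these summits than at protein-coding ones. The DNA replication-related element TATCGATA was in 1 of 155 windows (0.645%, 0.114 to 3.56%), against 7.25% at protein-coding starts and 0.733% of failing candidates at non-coding starts. The core GGTCACAC of Ohler motif 1 was in none (0 of 155, upper bound 2.42%), against 4.60% and 0.489%. The box CGATA of the insulator protein BEAF-32, whose letters are part of the replication element, was in 28 (18.1%, 12.8 to 24.9%), against 37.5% and 20.3%. Across all other passing windows, which include the protein-coding ones, the shares of these motifs were 3.43%, 2.27% and 27.8%. The first 2 of these shares fell within the intervals of the 155 summits and the last lay above. Summits with no start in reach have no share of their own here.

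The E-box CAGCTG was in 10 windows (6.45%, 3.54 to 11.5%), and the share at protein-coding starts was just above that interval. The other motifs had intervals that took in the protein-coding share, except GAGAG, whose lower bound was just above it. GAGAG, the site of GAGA factor, was in 43 (27.7%, 21.3 to 35.3%, against 20.7%). The CTCF core AGNNGGCGC was in 7 (4.52%, 2.20 to 9.03%, against 2.84%), the GATA site AGATAA in 23 (14.8%, against 12.6%), the Zelda site CAGGTAG in 1 (0.645%, against 0.697%) and a run of 8 A in 22 (14.2%, against 13.6%). TATAAA was in 56 (36.1%, 29.0 to 43.9%), against 34.9% at protein-coding starts. It was in 17.4% of failing candidates at non-coding starts, but about as often as in members once these were weighted to the members' GC content.

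**Figure D5:**
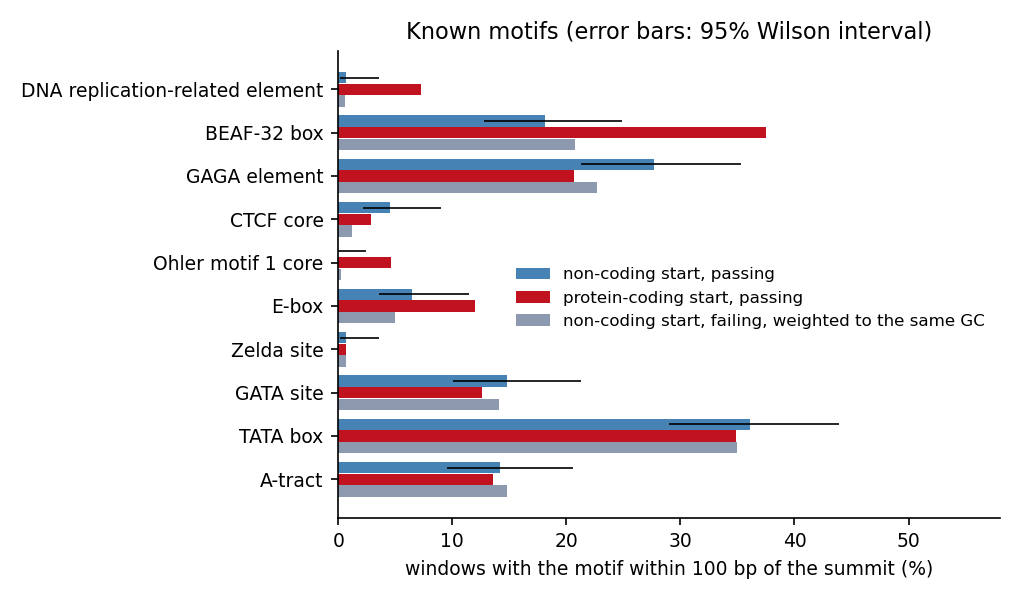
Share of windows (%) with each of 10 motifs within 100 bp of the summit, for the 155 summits at non-coding starts (bars with 95% Wilson intervals), 2151 protein-coding summits and failing candidates weighted to the same GC content. The largest gap to protein-coding summits is at the BEAF-32 box, 18.1% against 37.5%.

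Short words were also taken from peaks elsewhere. The 10 8-mers that most set passing windows apart from failing ones of the same GC content, chosen without any of the 155 windows but with the protein-coding summits among the passing ones, occurred in 30 of these (19.4%, 13.9 to 26.3%), against 26.5% of protein-coding summits and 7.09% of failing candidates at non-coding starts, or 15.6% of the latter weighted to the same GC content. The protein-coding share may be raised by that choice, so the pair is not an even comparison. Of the 10, 5 hold TTTAAA. Searched by itself after this was seen, TTTAAA was within 100 bp of 46 of 155 summits (29.7%, 23.0 to 37.3%), against 36.4% of protein-coding summits, 13.9% of failing candidates and 27.2% of these weighted for GC content. Its matches were densest at the summit, with 14.2 per 100 windows within 25 bp and 6.45 from 75 to 100 bp out, while failing candidates had 3.55 and 4.16. Weighted to the members' GC content, the failing candidates had 10.9 and 6.49, so that the difference at the summit was smaller at equal GC content. From 25 to 50 bp out the weighted failing candidates had 11.0, against 9.68 in members. Within 50 bp of the summit, TTTAAA was in 18.7% of members (13.4 to 25.6%) and in 18.2% of the weighted failing candidates. A match is a string of letters and was not tested as a binding site.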

How the data were processed

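The authors deposited ranked and thresholded peak lists on dm6 for each library, for both together (series-wide) and as a conservative set. Which aligner and peak caller made them is not stated in the sources at hand. The signal of each peak is the authors' own value, deposited with no stated scale, and was used to rank or describe peaks within a list. The deposited −log10 of the global IDR separated passing from failing candidates at a value of 2. How many reads lie behind a peak is unknown.

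Summits (1-based) were placed by nearest transcript start in Ensembl release 115, window 500 bp; sequence came from the RefSeq copy of the assembly. Overlap meant at least 1 bp. GC and 8-mer windows were 50 bp to either side, with GC weighting in bins of 5 percentage points, and motif windows 100 bp. No test was made: shares carry 95% Wilson intervals. Python 3.11.15, numpy 2.4.6, pandas 2.3.3 and scipy 1.17.1 were used, and placing and motif search were tested on simulated data.

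Genes named are those at the 15 strongest peaks, the strongest of each RNA class, a list of well-known RNAs, the 3 weakest peaks and the 3 nearest the limit on each side; all small RNA members were added after their values were seen. The members and lists were chosen with earlier results of these data known. Alternatives covered the window, the IDR, the conservative list, each replicate alone, overlap, GC window and the RNA classes.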

Additional observations from a re-analysis of the deposited data

How the results depend on the processing

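Of 73 values over 13 settings, 61 stayed within 1.5 times for counts or within the interval of the reported value otherwise; these are the members' own values. The number of summits was 98 with a window of 250 bp and 246 with 1000 bp. At an IDR of 0.001, a protein-coding start was in reach of 12.2%, the median signal was 194, both replicates were met by 79.1% and 11.8% of candidates passed. The passing share was 8.71% with the conservative list. Leaving out 1 replicate, that is using the list of the other, gave 9.45 to 10.4% passing candidates, a protein-coding start in reach of 13.8 to 17.4% and a mean GC content of 32.9 to 34.4%. GC content was 37.4% with 100 bp to either side. The IDR of 0.001 keeps fewer peaks by construction. The passing share of all candidates was lower in the same lists, at 11.0% for that IDR, 7.53% in the conservative list and 7.77 and 8.91% in the replicate 1 and 2 lists, which rank 62792 and 37922 candidates against 34018. For the other values the cause was not tested. Comparison groups, recomputed as a choice made after seeing the data, kept the order of upstream shares, while intervals for a protein-coding start in reach overlapped between passing and failing summits with windows of 250 and 1000 bp and with 1 start per gene as well. The upstream share kept within its interval in every setting run. Leaving out snoRNA and microRNA summits, or summits beside a stronger one, was chosen after seeing the data and moved no share, median or mean out of its interval. Median signal and the share met by both replicates were not computed for single lists, whose signal has another scale. No paired analysis was possible because there is 1 group and no test. With 2 libraries, no control and unknown depth, an absent peak does not show absent binding.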
